A study of Drosophila melanogaster with 24 samples.

Results

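Glutathione S-transferases were represented by 36 probe sets for 34 genes among the 18769 probe sets of the array. They were chosen as every probe set annotated to a single gene whose symbol begins with Gst: 11 genes of class D, 13 of class E, 3 of class O, 1 of class S, 4 of class T and 2 of class Z. GstE9 and GstO2 each had 2 probe sets, called here brighter and dimmer after their mean Signal. Transcripts were measured in whole virgin flies of Drosophila melanogaster, 3 to 7 days old, from 6 lines of 1 artificial selection experiment at generation 28 per the series description, while the article's methods name an earlier generation. H1 and H2 were selected for high male aggression, L1 and L2 for low male aggression, and C1 and C2 were unselected controls. Each sample pooled several flies, and in all groups the flies had gone without food for a short time before collection, per the study's methods. Males and females of each line were each hybridized to 2 arrays, so that a selection group held 8 arrays, 4 per sex. The design asks whether transcript abundance differed between the sexes, among the lines, and between selection groups in both of their replicate lines.

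Glutathione S-transferases join the tripeptide glutathione to reactive compounds and so make them more soluble and easier to export. In insects the classes D and E are large, arose by tandem duplication, and are known for the handling of plant toxins, insecticides and lipid peroxidation products. The classes O, S, T and Z are shared with other animals and include enzymes of pigment synthesis and tyrosine breakdown. The gut, the Malpighian tubules and the fat body are the tissues best known for this detoxification.

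The gene order used here is that of the RefSeq annotation (Release 6 plus ISO1 MT). On chromosome arm 3R, GstD10, GstD9 and GstD1 to GstD8 followed one another with no other protein-coding gene between them, and GstD11 lay 1 gene further on. On arm 2R, GstE10 and GstE1 to GstE9 did the same, with GstE11 12 genes further on. GstE8 has no probe set that names it alone. On arm 3L, GstO3, sepia (se), GstO2 and GstO1 were adjacent. GstT1 and GstT2 on arm 2R and GstZ1 and GstZ2 on arm 3R were adjacent pairs, while GstE12, GstE13, GstE14, GstS1, GstT3 and GstT4 stood apart, GstT3 and GstT4 on X.

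The deposited value is a Signal, an intensity on a linear scale, scaled so that the trimmed mean of every array was 497.1 to 498.4. The median Signal was 124.8 to 143.4 on male arrays and 71.4 to 118.9 on female arrays. Differences were tested on log2(Signal + 16) with limma, and 33 of the 36 members were bright enough to be tested. GstD4 (Signal 5 to 91.9), GstD6 (1.5 to 43.3) and GstE9 dimmer (7.1 to 112.8) were not. Signals of different probe sets are not compared with each other, since each probe set binds with its own efficiency. Nothing in the labels says that the 2 arrays of a line and sex came from separate cultures, so p-values over arrays measure only the spread between these samples. Replicate arrays correlated at 0.972 to 0.9905 across probe sets. In C1 female replicate 1 the summed Signal of 9 male accessory gland genes was 4934, against 97.3 to 226.7 on the other 11 female arrays, and that of 12 testis genes was 2384, against 207.6 to 524. Without this array and L1 female replicate 1, which held the lowest GstT4 Signal, 10 members differed by line, 7 were called between H and L, 8 between H and C and 10 between L and C. Shares of all probe sets in that fit were not counted, so these numbers have no background beside them.

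Among the 33 tested members, 12 differed by line at an adjusted p under 0.001 (limma F test over the 6 lines), which is 36.4% of them, while 6.71% of all probe sets tested did. They were GstD2, GstD5, GstD9 and GstD10 of class D, GstE1, GstE3, GstE5, GstE6 and GstE7 of class E, GstO3, GstS1 and GstZ1. None of the 4 class T members did. GstD9, GstE5 and GstO3 were called under each of 40 alternative settings, while GstD10, GstD5 and GstE3, just inside the threshold, lost the call under 32, 31 and 31 of them and GstD2 under 18. No member changed its sex difference from line to line at that threshold, against 0.0257% of all probe sets. A member was called between selection groups where its adjusted p was under 0.05 and both lines of the higher group lay above both lines of the other. Between H and L, 4 members were higher in H (GstD7, GstE3, GstE5 and GstE6) against 3.06% of all probe sets, and 3 were lower (GstD2, GstE1 and GstS1) against 4.57%. Between H and C, 5 were higher in H (GstD3, GstD7, GstD9, GstD10 and GstO2 dimmer) against 3.4%, and 3 were lower (GstD1, GstE1 and GstS1) against 5.71%. Between L and C, 6 were higher in L (GstD2, GstD3, GstD9, GstD10, GstE1 and GstO2 dimmer) against 2.47%, and 2 were lower (GstE5 and GstE6) against 3.09%. The 3 contrasts share their groups, so their calls are not independent, and 12 members were called in at least 1. The share of all probe sets called in at least 1 contrast was not counted. The median difference over the members was 0.04 for H minus L, 0.03 for H minus C and 0.08 for L minus C on the log2 scale, beside -0.02, -0.03 and -0.01 over all probe sets tested. The family thus held single genes that differed in both directions.

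**Figure D1:**
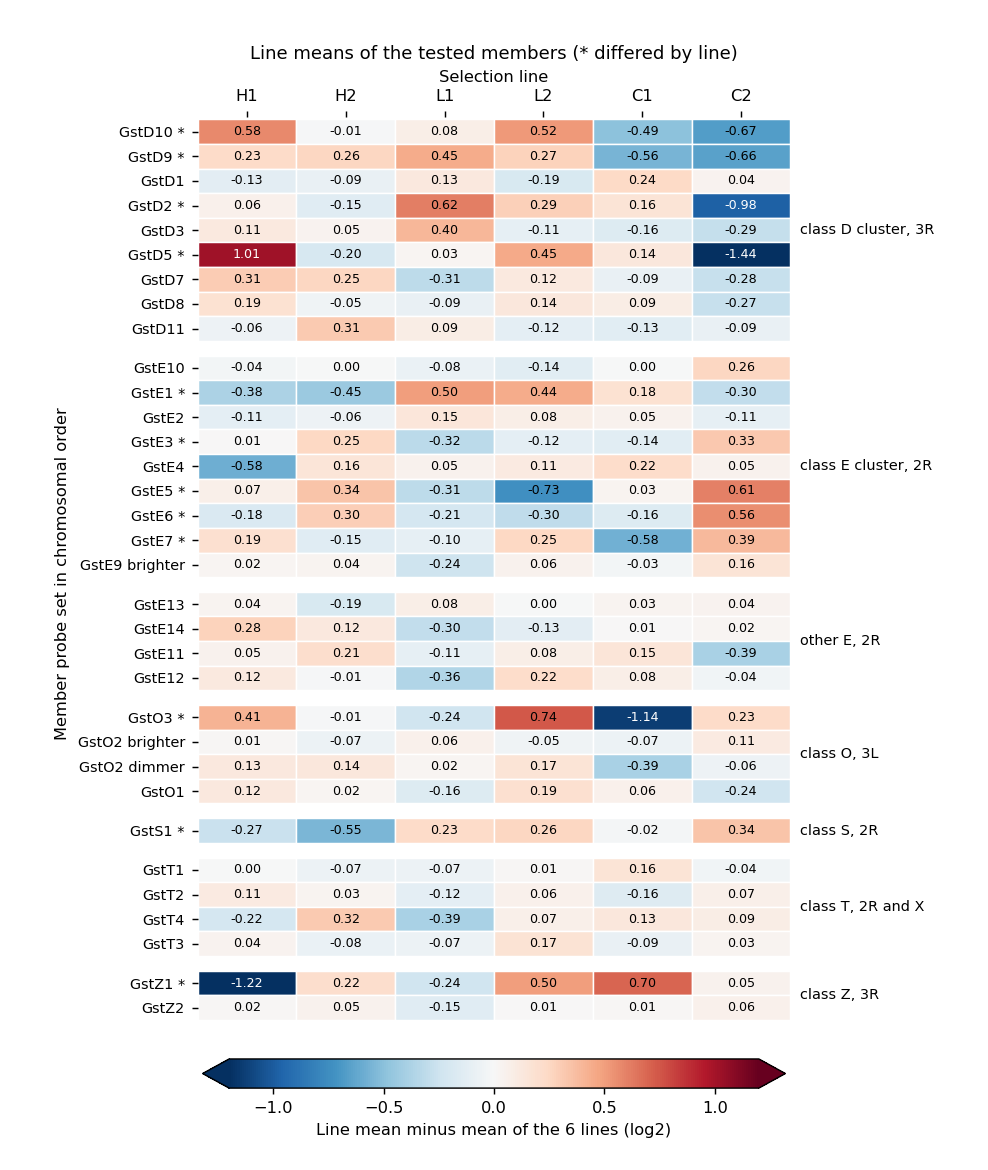
Line means of the 33 tested members over both sexes, each as log2 difference from the mean of the 6 lines. Rows follow chromosomal order within each class, columns are the lines, and an asterisk marks the 12 members that differed by line at an adjusted p under 0.001. GstD9 was low in C1 and C2, GstE1 was high in L1 and L2, GstO3 was low in C1 and GstZ1 was low in H1.

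The class D cluster held the member with the clearest difference between selected and control lines. GstD9 was higher in both H lines and both L lines than in both C lines, by 0.85 (SE 0.06) for H minus C and 0.97 (SE 0.06) for L minus C on the log2 scale. In males its Signal was 2151.8 and 2223.9 in H1, 1817.4 and 1977.2 in H2, 1944.3 and 2222.2 in L1, 2022.7 and 1945.9 in L2, 1186.9 and 1054.9 in C1 and 1219.6 and 1128 in C2. In females it was 1191.5 and 1144.4 in H1, 1439.2 and 1372.9 in H2, 1753.1 and 1582.9 in L1, 1372.8 and 1364.4 in L2, 696.8 and 812.2 in C1 and 575.7 and 678.8 in C2. Within each sex all 8 arrays of the selected lines lay above all 4 control arrays. The fold was 1.81 for H over C and 1.96 for L over C (adjusted p = 2.89e-07 and 1.55e-07), and the H and L lines were not called different (-0.12, SE 0.06, adjusted p = 0.245). The male differences were 0.82 for both contrasts on the log2 scale, and the female ones 0.89 for H minus C and 1.12 for L minus C.

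**Figure D2:**
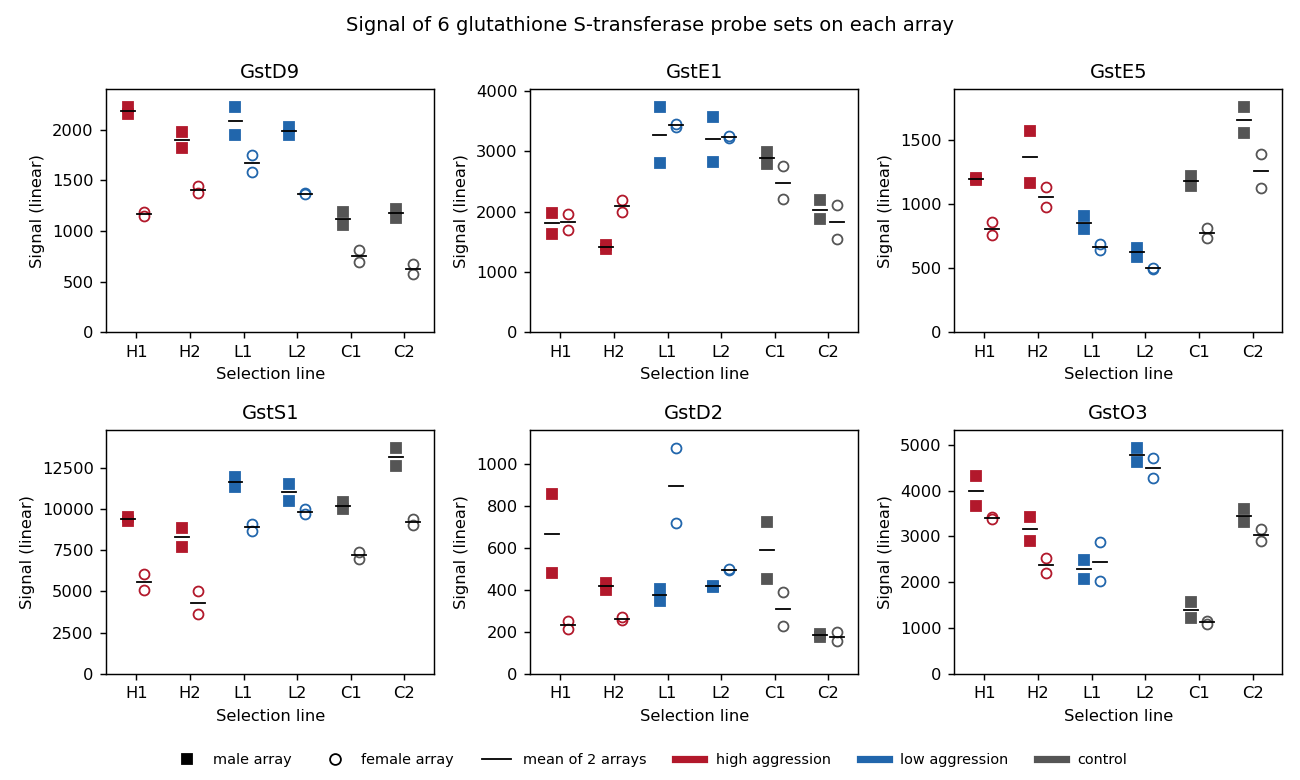
Signal (linear scale) of GstD9, GstE1, GstE5, GstS1, GstD2 and GstO3 on each of the 24 arrays by selection line, with squares for males, open circles for females and bars for the mean of 2 arrays. GstD9 in control males reached at most 1219.6 and in males of the selected lines was at least 1817.4.

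GstD10, the neighbour of GstD9, was dim and also higher in selected lines. In males the Signal was 125 to 251.1 in H, 99.3 to 169.6 in L and 92.6 to 117.6 in C. Its female Signal was 84.7 to 189.2 in H, 128.8 to 225 in L and 25.8 to 67.5 in C. The H and C groups did not overlap in either sex, and the L and C groups overlapped in males only. GstD10 differed by 0.86 (SE 0.14, adjusted p = 0.00109) for H minus C and by 0.88 (SE 0.14, adjusted p = 0.00115) for L minus C. The L minus C difference was 1.54 in females (adjusted p = 0.00044) and 0.22 in males (adjusted p = 0.675), and the difference between these was not called (adjusted p = 0.129). Without line H1 the H minus C difference was 0.57 (adjusted p = 0.0508).

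In males the summed Signal of 12 testis genes was 76410 to 87360 in H, 78500 to 81640 in L and 61120 to 71120 in C. C males thus lay below H and L males in this sum, as they did for GstD9, while GstD10 overlapped between L and C males. In females the sum was at most 524 outside C1 female replicate 1. Whether tissue shares had a part in the male values was not tested, and in whole flies fewer cells of a type and less RNA per cell cannot be told apart.

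GstD1, whose enzyme can break down DDT and whose gene is a standard readout of oxidative stress in flies, was slightly lower in H than in C. Its male Signal was 9685 to 11815.7 in H, 9964.4 to 12682.6 in L and 10610.8 to 13393.5 in C, and its female Signal 10577.4 to 11950.5, 10262.9 to 14737.1 and 12993.8 to 15949.9. H and C females did not overlap, and males of all groups did. The difference was -0.25 on the log2 scale (SE 0.05, adjusted p = 0.00736), a fold of 1.19, and -0.15 without line C1 (adjusted p = 0.146). GstD1 and GstD9 are neighbours, and GstD9 was the one higher in H than in C.

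GstD2 was higher in L than in H and C over both sexes, and its difference between H and L differed between the sexes in the test over arrays. Its female Signal was 494.3 to 1077.8 in L, 211.4 to 269.3 in H and 154 to 388.4 in C, so that every L female array lay above every other female array. Its male Signal was 345.1 to 419.9 in L, 400 to 856.9 in H and 176.5 to 724.2 in C, and these groups overlapped. H minus L was -1.37 in females (adjusted p = 0.000799) and 0.38 in males (adjusted p = 0.379), and these differed from each other (adjusted p = 0.0236). Over both sexes H minus L was -0.50 (SE 0.14, adjusted p = 0.0347) and L minus C was 0.86 (SE 0.14, adjusted p = 0.00125). In C2 the line mean was 7.61 on the log2 scale and in C1 it was 8.75, and without C2 the L minus C difference was 0.29 (adjusted p = 0.405). The H minus L call was lost under 20 of 40 alternative settings on the log2 scale, among them no filter (adjusted p = 0.0593) and arrays scaled to one median (-0.34, adjusted p = 0.168). These 20 included the removal of line H2 (-0.39, adjusted p = 0.24) or L1 (-0.33, adjusted p = 0.282). An ordinary model on the Signal, counted apart, lost the call as well (adjusted p = 0.146).

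The other members of the D cluster differed less evenly. GstD3 was higher in H than in C by 0.30 (SE 0.09, adjusted p = 0.0387) and in L than in C by 0.37 (SE 0.09, adjusted p = 0.0166). Its Signal was 884 to 1192.4 in H males, 1033.2 to 1411.9 in L males and 767.4 to 1086.9 in C males, with overlap between all groups. In females it was 1004.8 to 1179.2 in H, 700.8 to 1521.8 in L and 753.4 to 955.1 in C, and H and C did not overlap. The H minus C call of GstD3 was lost under 20 of 40 alternative settings on the log2 scale, among them no filter (adjusted p = 0.083) and the removal of line C2 (0.24, adjusted p = 0.228). Without line L1 the L minus C difference of GstD3 was 0.11 (adjusted p = 0.617). GstD7 was higher in H than in L by 0.38 (SE 0.09, adjusted p = 0.0152) and in H than in C by 0.46 (SE 0.09, adjusted p = 0.00404). Its male Signal was 203.1 to 304.1 in H and 138.7 to 193.1 in L, which did not overlap, and 120.2 to 256.2 in C. Without line L1 the H minus L difference of GstD7 was 0.16 (adjusted p = 0.426).

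GstD5 varied more among lines than any other tested member (line means from 6.37 in C2 to 8.82 in H1 on the log2 scale, adjusted p for line = 0.000849). GstD5 Signal in males was 694.4 and 948.4 in H1, 352.2 and 313.2 in H2, 356.4 and 614.5 in C1 and 113.9 and 85.1 in C2. Its differences of 1.06 (SE 0.23, adjusted p = 0.00719) for H minus C and 0.89 (SE 0.23, adjusted p = 0.0237) for L minus C were not called, because C1 lay among the selected lines. GstD8 (48.9 to 171.9) and GstD11 (20.2 to 101.6) were dim and called in no comparison of lines or groups.

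The class E cluster held genes called between H and L in each direction, none of the opposite ones adjacent. GstE1, whose enzyme conjugates the lipid peroxidation product 4-hydroxynonenal, was lower in H, and GstE3, GstE5 and GstE6 were higher in H. GstE1 Signal in males was 1629.6 and 1980.5 in H1, 1377.6 and 1449.3 in H2, 2812.3 and 3735.1 in L1, 2819.6 and 3574.4 in L2, 2794.1 and 2987.9 in C1 and 2189.1 and 1872.1 in C2. In females it was 1702.4 and 1953.5 in H1, 2200 and 1989.7 in H2, 3400.1 and 3454.8 in L1, 3220.5 and 3251.3 in L2, 2212.9 and 2750 in C1 and 1549.8 and 2102.8 in C2. Every L array was above every H array of its sex. The control arrays lay between or among them, except C2 female replicate 1 at 1549.8, which lay below every H female array. H minus L was -0.88 (SE 0.09, adjusted p = 1.175e-05), a fold of 1.85, with -1.002 in males and -0.77 in females. L minus C was 0.53 (SE 0.09, adjusted p = 0.00156) and H minus C was -0.35 (SE 0.09, adjusted p = 0.0176). These last values turned on the controls, at 0.29 for L minus C without C2 (adjusted p = 0.118) and -0.12 for H minus C without C1 (adjusted p = 0.539).

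GstE5 was lower in L than in H and C. Its Signal in males was 1205.7 and 1193.9 in H1, 1171.1 and 1576.8 in H2, 809.6 and 907.9 in L1, 588.3 and 662.5 in L2, 1146.5 and 1220.6 in C1 and 1762.1 and 1555.7 in C2. In females it was 862.2 and 761.4 in H1, 981.5 and 1139.7 in H2, 641.3 and 687.2 in L1, 497.5 and 504.1 in L2, 741.3 and 817.4 in C1 and 1391.4 and 1126.1 in C2. Within each sex every L array was below every H and every C array. H minus L was 0.73 (SE 0.07, adjusted p = 1.175e-05) and L minus C was -0.84 (SE 0.07, adjusted p = 4.14e-06), folds of 1.66 and 1.79. H minus C was -0.11 (SE 0.07, adjusted p = 0.38), and without C2, the line with the highest GstE5, L minus C was -0.55 (adjusted p = 0.00209).

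GstE6, the next gene, had the same order of groups with smaller differences. Its male Signal was 3902.3 to 5525.7 in H, 3189.5 to 3647.2 in L and 3863.9 to 7321.4 in C, and the L males lay below all others. In females L (3959.7 to 5267.4) overlapped H (4151.2 to 6478.4) and C (4052.9 to 7569.8). H minus L was 0.32 (SE 0.07, adjusted p = 0.00984) and L minus C was -0.46 (SE 0.07, adjusted p = 0.000884). The values rested on H2 and C2, at 0.08 for H minus L without H2 (adjusted p = 0.689) and -0.10 for L minus C without C2 (adjusted p = 0.567).

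GstE3 was higher in H than in L by 0.35 (SE 0.07, adjusted p = 0.00324), with 5739.4 to 6453 in H males and 3915.9 to 5211.1 in L males. In females H (3098.8 to 4397.6) and L (2561.2 to 3306.4) overlapped, and without line H2 the difference was 0.23 (adjusted p = 0.126). GstE7 differed by line (adjusted p = 6.53e-05) but in no contrast between groups, since the control lines held both its lowest and its highest mean. Its female Signal was 719.3 and 754.9 in C1 and 1682.7 and 1864.8 in C2, with 1013.9 to 1606.7 in the 4 selected lines. GstE2, GstE4, GstE10 and GstE9 brighter (4059.7 to 9710.4), in the same cluster, were called neither by line nor between groups.

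**Figure D3:**
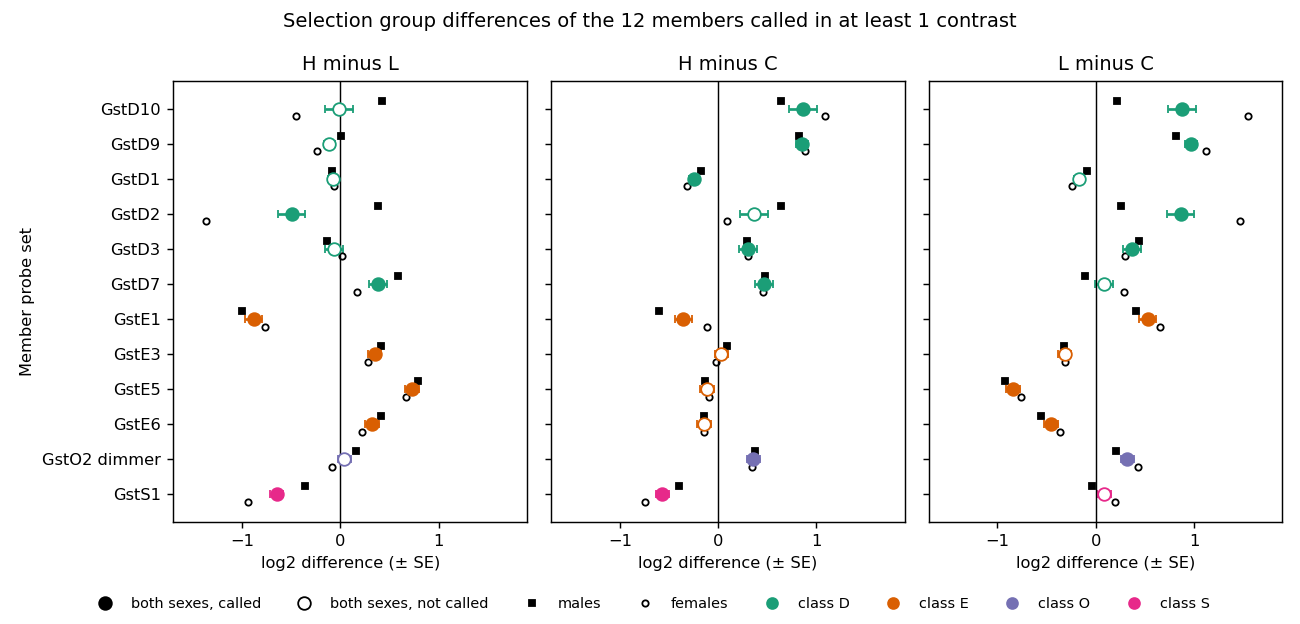
Log2 differences between selection groups (H minus L, H minus C and L minus C, with SE over both sexes) for the 12 members called in at least 1 contrast, filled where called, with small squares for males and small open circles for females. GstE1 lay at -0.88 and GstE5 at 0.73 for H minus L, and GstD2 had opposite signs in the sexes.

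Neighbouring genes were also compared over the 6 line means, for 16 adjacent pairs of probe sets. GstE1 and GstE2 varied together (Pearson's r = 0.954, exact permutation p = 0.0181, adjusted over the pairs p = 0.17, Spearman's rho = 0.83, exact permutation p = 0.0583, adjusted p = 0.411), with r = 0.883 without the 2 lines farthest from the median. GstE5 and GstE6 did so as well (r = 0.869, exact permutation p = 0.0236, adjusted p = 0.17, rho = 0.943, exact permutation p = 0.0167, adjusted p = 0.267), with r = 0.821 without those lines. GstE2 and GstE3 ran opposite to each other (r = -0.861, exact permutation p = 0.0319, adjusted p = 0.17, rho = -0.771, exact permutation p = 0.103, adjusted p = 0.411, and r = -0.984 without those lines). None of the 16 pairs passed an adjusted p of 0.05, and 6 lines are few for such a test. GstD9 and GstD1 had r = -0.528 (exact permutation p = 0.29, adjusted p = 0.516, rho = -0.257, exact permutation p = 0.658, adjusted p = 0.878), which became 0.913 without the 2 farthest lines and so rested on them.

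GstS1, the single class S gene, encodes an abundant enzyme of the indirect flight muscle. It was lower in H than in L and C in both sexes. Its probe set is of a kind designed to match more than 1 transcript, so another transcript could contribute. The female Signal was 6044.9 and 5078.6 in H1, 5035.6 and 3608.4 in H2, 9098.2 and 8667.3 in L1, 10000.8 and 9682 in L2, 6990.6 and 7387.4 in C1 and 9416.2 and 9049.4 in C2. The male Signal was 9517.7 and 9255.8 in H1, 8864.8 and 7719.7 in H2, 11961.3 and 11323 in L1, 10489.8 and 11516.8 in L2, 10017.4 and 10401.9 in C1 and 13696.8 and 12604.4 in C2. In both sexes all 4 H arrays lay below all L and C arrays. H minus L was -0.65 (SE 0.07, adjusted p = 1.62e-05) and H minus C was -0.57 (SE 0.07, adjusted p = 7.98e-05), while L minus C was 0.08 (adjusted p = 0.564). H minus L was -0.94 in females and -0.36 in males, and the difference between the sexes was not called (adjusted p = 0.12).

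The class O genes include GstO1, GstO2 and GstO3, omega class enzymes with thiol transferase activity, and sepia, which encodes the enzyme for a step of red eye pigment synthesis. GstO3 differed strongly among lines (adjusted p = 3.62e-07) but not by selection group. Its male Signal was 1555.3 and 1218.7 in C1, 2067.3 and 2492.3 in L1, 2906.7 and 3414 in H2, 3304.4 and 3602.9 in C2, 3669.7 and 4325.2 in H1 and 4626.6 and 4925.5 in L2. Females followed the same lines, from 1154.7 and 1086.3 in C1 to 4275 and 4699.1 in L2. The low value of C1 and the high value of L2 lay in different groups, so that the differences of 0.66 for H minus C and 0.71 for L minus C (adjusted p = 0.000133 and 7.20e-05) did not hold for every pair of lines. The adjacent gene se was highest in L1, at a line mean of 9.63 on the log2 scale, while L2 stood at 7.18 and the other 4 lines at 7.22 to 8.02 (adjusted p for line = 5.21e-07). GstO3 and se thus had their highest means in different L lines.

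The 2 probe sets of GstO2 gave different results. The dimmer was higher in H than in C by 0.36 (SE 0.06, adjusted p = 0.00212) and in L than in C by 0.32 (SE 0.06, adjusted p = 0.00552), with 618.3 to 681.8 in H females, 646.2 to 757.2 in L females and 420.8 to 617 in C females, which did not overlap the selected groups. The brighter had differences of -0.05 and -0.01 in the same contrasts (adjusted p = 0.649 and 0.931), with Signals of 3114.8 to 4235.2 over all arrays. Without line C1 the differences of the dimmer were 0.19 and 0.15 (adjusted p = 0.107 and 0.226). GstO1 was called neither by line nor between groups.

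GstZ1 and GstZ2 are zeta class genes, a class that holds the isomerase of tyrosine breakdown. GstZ1 was low in H1. Its male Signal was 35.9 and 61.3 in H1, 124.2 and 163.1 in H2, 141 and 76 in L1, 180.3 and 202.9 in L2, 242.1 and 194.6 in C1 and 163.4 and 102.2 in C2. In females H1 stood at 105.4 and 120, and the other 5 lines at 233 to 559.8. The 2 H lines thus lay apart, and no contrast was called although the adjusted p was 0.00571 for H minus L (-0.63) and 0.000509 for H minus C (-0.88). GstZ2, next to it, was at 156.2 to 351.5 over all arrays and was not called by line (adjusted p = 0.738).

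In the 4 class T members, line means spanned 0.23 (GstT1), 0.27 (GstT2), 0.26 (GstT3) and 0.71 (GstT4) on the log2 scale. GstT4 stood at 2638.5 to 3764.2 in males and 1181 to 4324.7 in females, and none of the class was called in any contrast between groups. GstE11, GstE12, GstE13 and GstE14 outside the E cluster were not called by line or between groups either. GstE12 stood at 4978.3 to 10150.3. GstE14, whose enzyme is needed for steroid hormone synthesis in the larval ring gland, was near the floor at 11.1 to 100.6.

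Males and females differed for 20 of the 33 tested members at an adjusted p under 0.001. In the authors' scaling 12 were higher in males (36.4% of the members, with 30.2% of all probe sets) and 8 were higher in females (24.2%, with 45.3% of all probe sets). The sexes differed in their overall Signal distribution. With arrays scaled to one median instead, the median of all probe sets tested moved by -0.66, to -0.84, on the log2 scale. No member was then called higher in males and 16 were called higher in females. The share of all probe sets called each way after rescaling was not counted, so rescaled counts here and below have no background beside them. Sex differences are therefore given in the authors' scaling, to be read against the median of all probe sets tested, which was -0.18, and the direction after rescaling is named.

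**Figure D4:**
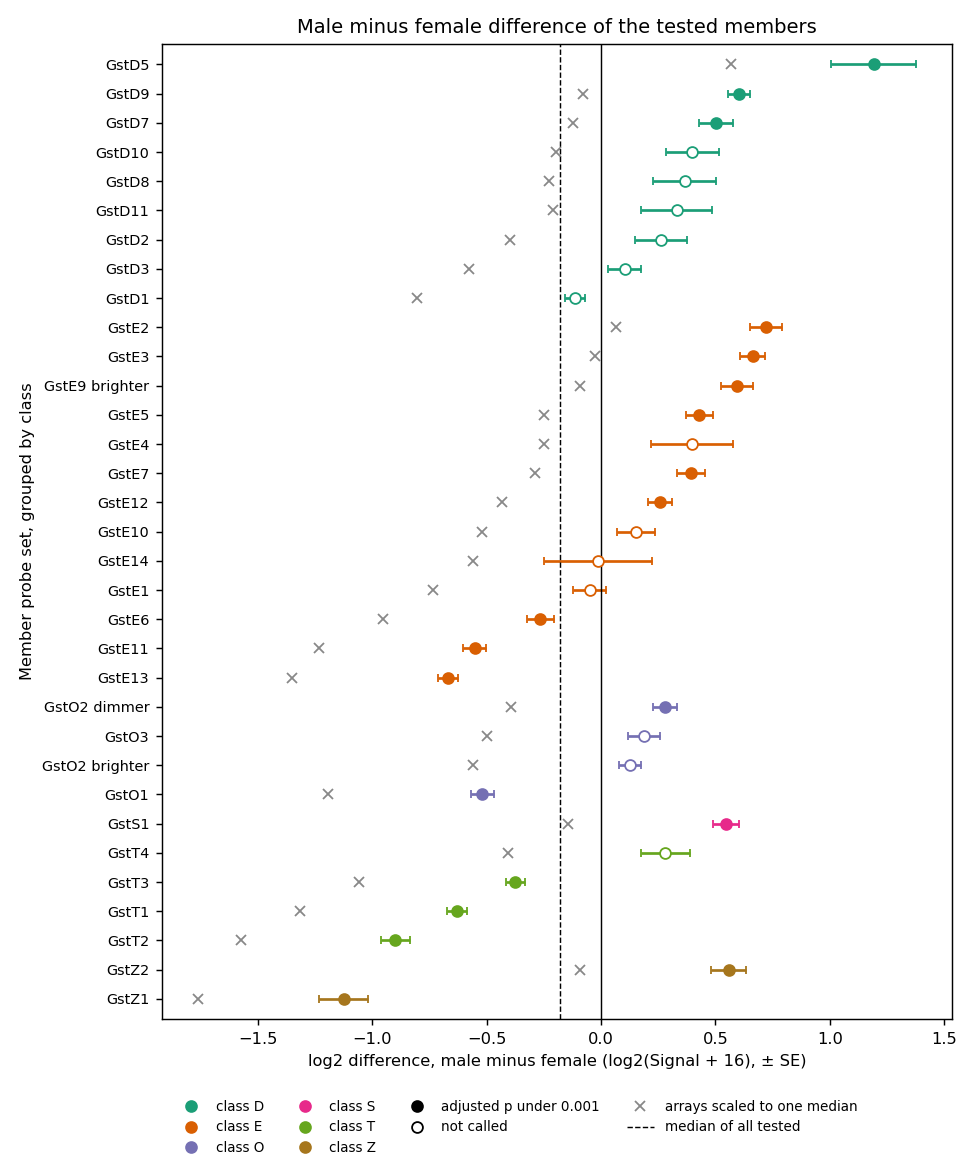
Male minus female log2 difference (± SE) of the 33 tested members by class in the authors' scaling, filled where the adjusted p was under 0.001, with crosses for arrays scaled to one median and a dashed line at -0.18, the median of all probe sets tested. GstD5, at 1.19, and GstE2, at 0.72, stayed above 0 after rescaling, while the other 10 members called higher in males fell below 0.

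GstD5 had the largest male excess, with male Signals from 85.1 to 948.4 (median 332.7) and female Signals from 19.2 to 308.4 (median 123.25). The sexes overlapped because the lines differed, and the difference was 1.19 (SE 0.19, adjusted p = 1.80e-05), or 0.57 with arrays scaled to one median (adjusted p = 0.0167). GstE2 was higher in males by 0.72 (SE 0.07, adjusted p = 6.75e-08), with no overlap between 356.9 to 501.9 in males and 197.6 to 292.7 in females, and its difference was 0.06 after rescaling. GstE3 (0.66), GstD9 (0.60), GstE9 brighter (0.60), GstZ2 (0.56), GstS1 (0.55), GstD7 (0.50), GstE5 (0.43), GstE7 (0.39), GstO2 dimmer (0.28) and GstE12 (0.26) were also higher in males in the authors' scaling and below 0 after rescaling.

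The members higher in females were so under both scalings. GstZ1 had the largest female excess, at -1.12 (SE 0.11, adjusted p = 5.94e-08), with 105.4 to 559.8 (median 333.85) in females and 35.9 to 242.1 (median 152.05) in males. The sexes of GstZ1 overlapped across lines, but within each line both female arrays lay above both male arrays. GstT2 followed at -0.90 (SE 0.06, adjusted p = 1.13e-09), with 685.8 to 914.8 in females and 305.2 to 481.9 in males. GstE13 differed by -0.67, GstT1 by -0.63, GstE11 by -0.55, GstO1 by -0.52, GstT3 by -0.38 and GstE6 by -0.27. The sexes did not overlap for GstT2, GstE13, GstT1 or GstT3. By class, the median sex difference over the 9 tested members of class D was 0.37 in the authors' scaling, with 3 higher in males and 0 in females, and -0.21 after rescaling, with 0 higher in males and 2 in females (GstD1 at -0.805 and GstD3 at -0.58). Over the 13 of class E it was 0.26 and after rescaling -0.43. Over the 4 of class T it was -0.50 and after rescaling -1.19, and GstT1, GstT2 and GstT3 were called higher in females under both scalings. Adjacent genes could go opposite ways in the authors' scaling, as GstZ1 (-1.12) and GstZ2 (0.56), GstE5 (0.43) and GstE6 (-0.27), and GstO2 dimmer (0.28) and GstO1 (-0.52). After rescaling all of these were below 0, with GstZ2 at -0.09, GstE5 at -0.25 and GstO2 dimmer at -0.40.

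Other genes of glutathione metabolism and its control were read from lists, with sex counts in the authors' scaling only. Over all probe sets tested, 30.2% were higher in males, 45.3% were higher in females and 6.71% differed by line. The lists are too short for their counts to be set against these shares. Of 8 tested genes of glutathione synthesis and recycling, 4 were higher in males, 3 were higher in females and 1 differed by line. That gene was CG17636, which was lower in L than in C by 0.62 and was the only one of the list called in a contrast. Of 11 other glutathione-using enzymes, 2 were higher in males and 6 in females, 2 differed by line (se and Prx6c) and 1 was called between groups, the peroxiredoxin gene Prx6c, higher in H than in C by 1.81 (adjusted p = 3.34e-06). The transcription factor cnc, the fly counterpart of Nrf2, acts with maf-S and is held back by Keap1, and is the best known activator of Gst genes. It differed by line (adjusted p = 1.15e-05), with line means of 9.67 in H1, 10.70 in H2, 11.22 in L1, 9.69 in L2, 9.88 in C1 and 11.63 in C2 on the log2 scale, so that the lines of a group lay apart. Keap1 (adjusted p for line = 0.0304) and maf-S (adjusted p for line = 0.214) were not called, and of the 7 tested regulators 6 were higher in females and none was called between groups. Of 7 multidrug transporters, which export conjugates, 3 were higher in males and 2 in females, none differed by line, Mdr49 (0.19) and Mdr50 (0.49) were higher in H than in L, CG10505 was lower (-0.34), and MRP (0.34) and Mdr49 (0.18) were higher in H than in C. Of 5 tested genes of eye pigment synthesis, 1 was higher in males and 1 in females, none differed by line, and scarlet (st) was higher in H than in L (0.32) and than in C (0.19).

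The summed Signal of 7 midgut genes was 44440 to 53690 in H males, 43450 to 51400 in L males and 44340 to 51990 in C males, and in females 47400 to 60690, 44090 to 59140 and 54370 to 63860. The sum of 11 Malpighian tubule genes was 6597 to 7555 in H males, 5972 to 6764 in L males and 6939 to 8982 in C males, and in females 6531 to 7125, 5762 to 6638 and 6494 to 7469. The sum of 10 fat body genes was 32960 to 38400 in H males, 33630 to 40290 in L males and 33780 to 38000 in C males, and in females 76490 to 104400, 82010 to 114900 and 101100 to 119100. The sum of 13 ovary, yolk and eggshell genes was 297 to 457.1 in males, and in females 157000 to 192700 in H, 123900 to 167900 in L and 166400 to 206800 in C. The yolk protein genes Yp1, Yp2 and Yp3 are in both the fat body and the ovary list, so these sums are not independent. Their male minus female differences were -9.73, -9.45 and -7.34 on the log2 scale. The female fat body sum therefore includes yolk protein transcripts. L males lay below C males in the tubule sum without overlap. The part of these tissues in the members' differences was not tested.

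Selection acted on lines, and when each line counted as 1 replicate (limma on 6 means) no member passed an adjusted p of 0.05 between groups. The lowest value among the members was an adjusted p of 0.563 for H versus L, 0.415 for H versus C and 0.558 for L versus C. At an unadjusted p under 0.05, 4 members differed between H and L (GstE1, GstE5, GstE14 and GstS1), with 5.12% of all probe sets. Between H and C 5 did (GstD7, GstD9, GstD10, GstO2 dimmer and GstS1), with 5.2%, and between L and C 5 did (GstD2, GstD9, GstD10, GstE1 and GstE5), with 4.47%. With line as a random block, GstE1, GstE5 and GstS1 stayed called between H and L, and GstD9 and GstS1 between H and C. GstD9 and GstE5 stayed called between L and C. Only these 7 of the 23 calls were also kept under every other setting tried, except with the line as the replicate, where none was kept.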

How the data were processed

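Whole virgin flies of 6 lines and both sexes were measured on 24 Affymetrix Drosophila arrays, 2 for each line and sex. The deposited values are MAS5 Signals, an intensity on a linear scale, which the authors scaled to 1 trimmed mean (2% trimmed) per array, and detection calls were not used here. Scaling to the mean ties each Signal to the overall distribution of its array, which differed between the sexes. Groups were taken from the sample labels. The first male array of H2 carries both H line numbers in its label and was read as H2, and exchanging it with that of H1 was tried.

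Of 18769 probe sets, the 11666 with the highest 12th-highest Signal (56.6 or more) were tested and 7103 were left out. Values were log2(Signal + 16), so fold changes of dim members are understated. In R 4.3.3, limma 3.58.1 fitted a mean to every line within a sex (12 means), with Benjamini-Hochberg adjustment over all probe sets tested. Thresholds were 0.001 for sex, line and line by sex, after the study's methods, and 0.05 with all 4 differences between lines of the same sign for contrasts between selection groups. A second fit used the 6 line means, with the line as the replicate. Neighbouring members were compared over the line means by exact permutation, two-sided.

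Probe sets were named from the platform annotation, in which 13647 name 1 gene, 402 several and 4720 none. Gene order and names came from RefSeq, where 13544 of the 13647 were found. Lists of pathway genes and of midgut, Malpighian tubule, fat body, ovary, testis and accessory gland markers were read in the same fit. All members were accounted for. Values by array or as a range were given for members that differed by line or between groups, for those with the largest sex differences, and for the one with the highest mean Signal in each class, a choice of what to describe and not a comparison of abundance between probe sets. The others were given by their range, their sex difference or their call. The members, lists and rules were chosen with earlier results of these data known. Alternatives were other pseudocounts (1 and 64), no filter, a filter on the median Signal (100), quantile normalization within sex, arrays scaled to 1 median, an ordinary model on the Signal, a replicate block, line as a random block, and leaving out each array or line. The fits were tested on simulated data that held only the spread between replicate arrays. Lines of a group did not differ there, so that test says nothing about calls under differences between lines. The number of arrays limits the precision of each value.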

Additional observations from a re-analysis of the deposited data

Results flagged for a closer look

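In H versus L, GstD2 was the 1 of 99 member contrasts in which the sexes differed at an adjusted p under 0.05 (limma, adjusted p = 0.02364), with H minus L at 0.38 in males and -1.37 in females. The share of all probe sets that passed this threshold was not counted.

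In 10 of 216 groups of 4 arrays 1 array stood far from the other 3. A rate of 1 in 20 would give 10.8 groups, but that rate holds for 4 independent arrays. Each group here held 2 arrays of each of 2 lines, so the 2 numbers cannot be compared closely. GstD3 stood at 884 in H2 male replicate 1, against 1142.9 to 1192.4 in the other H males, and at 1179.2 in H2 female replicate 1, against 1004.8 to 1029.3. GstD6 stood at 43.3 in L1 female replicate 1, against 2.2 to 4.1 in the other L females, and GstT4 at 1181 on the same array, against 2491.3 to 2854.4. GstE13 stood at 1311.4 in C2 female replicate 2, against 1158 to 1179.1, and GstT1 at 1662.3 on the same array, against 1915.3 to 1961.2. GstE14 stood at 11.1 in H2 male replicate 1, against 76.2 to 94.5. GstE4 stood at 446 in L2 male replicate 2, against 247.2 to 267. GstE5 stood at 1576.8 in H2 male replicate 2, against 1171.1 to 1205.7, and GstO1 at 732.1 in H2 female replicate 2, against 812.8 to 822.8.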

How the results depend on the processing

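No call between selection groups changed sign under any setting. With the line as the replicate no call was kept. Under each other setting 7 of 23 kept their side of the threshold. These were GstD9 for H and L against C, GstE1 and GstS1 for H against L, and GstS1 for H against C. They also held GstE5 for H and C against L. With arrays scaled to one median, the median of all probe sets moved by -0.66 for male minus female and by 0.15 for H minus L. Under this setting 0 members were higher in males, 16 were higher in females and 6 differed by line, with no share of all probe sets counted beside them. The sex difference then changed sign for GstD9 (-0.078), GstD3 (-0.58), GstD7 (-0.12), GstE10 (-0.52), GstE3 (-0.025), GstE5 (-0.25), GstE7 (-0.29), GstE9 brighter (-0.093), GstE12 (-0.43), GstO3 (-0.50), GstO2 brighter (-0.56), GstO2 dimmer (-0.40), GstS1 (-0.14) and GstZ2 (-0.090). GstE6 lost its sex call under 21 of 40 settings.

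With the first male labels of H1 and H2 exchanged, 5 members differed by line. With line as a random block, 3 members were called for H versus L, 2 for H versus C and 2 for L versus C, and with the line as the replicate 0 were called in each at an adjusted p under 0.05. Members at an unadjusted p under 0.05 with the line as the replicate numbered 3 for H versus C after quantile normalization within sex, and 2, 3 and 3 for H versus L, H versus C and L versus C in an ordinary model on the Signal. Over the 30 fits without 1 array or line, 10 to 13 members were higher in males, 7 to 8 higher in females and 7 (without C2) to 11 differed by line. Calls in those fits numbered 5 to 9 for H versus L, 6 to 12 for H versus C and 7 to 12 for L versus C, and 3 to 5, 2 to 7 and 3 to 9 with the line as the replicate. Shares of all probe sets were not counted for the exchanged labels, the random block, quantile normalization or the ordinary model. Nor were they counted for the fits without 1 array or line, so these counts have no background beside them. The causes were not tested.

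Pairing of the samples by replicate number was not evident. Differences between replicates 1 and 2 correlated at -0.242 to 0.213 between 66 pairs of line and sex groups (19 over 0.1), which cannot exclude a shared effect in some groups. With a replicate block 12 members were higher in males, 8 were higher in females, 13 differed by line, and 7, 8 and 8 were called in the 3 contrasts. Shares of all probe sets were not counted there either. The removal of 2 female arrays together (C1 and L1 replicate 1) was chosen after seeing the data, and GstD2 for L versus C (0.85) and GstE6 for H versus L (0.28) then lost their calls. Signals near the array floor, as for GstD4, GstD6 and GstE14, limit what can be said of those members.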

Other observations

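Prx6c, a peroxiredoxin gene outside the family, had line means on the log2 scale of 8.94 in H1, 10.56 in H2, 11.67 in L1, 7.22 in L2, 7.66 in C1 and 8.22 in C2, with males above females by 2.34. The L lines held both its highest and its lowest mean.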
